A study of Mus musculus with 14 samples.

Results

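The comparison described here sets 2 libraries taken after 6 weeks of SOX9 induction (W6) against 2 libraries taken before it (D0), 4 of the 14 libraries of the series. W6 was the last timepoint of skin that had not been grafted. All 4 libraries came from back skin of CD1 mice of the genotype K14rtTA; TRE-myc-Sox9, labelled male, and were chosen by their timepoint label. In these mice the *Krt14* promoter drives the DOX-dependent activator rtTA in the basal layer of the epidermis, so the MYC-tagged *Sox9* transgene is switched on by DOX in keratinocytes and not in the other cells of the skin. DOX was given from postnatal day 21, and the D0 mice were 21 and the W6 mice 63 days old. The cells were sorted as epidermal stem cells (EpdSCs), negative for the markers CD31, CD45, CD117 and CD140a and for CD34, high for integrin α6 (CD49f) and high for Ly6A. No age-matched mice without the transgene were analysed here, so that 6 weeks of SOX9, 6 weeks of DOX and 6 weeks of age cannot be told apart. The libraries are labelled as biological replicates without a statement of how many mice each one held.

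EpdSCs sit on the basement membrane of the epidermis, to which they are fixed by hemidesmosomes, and they either divide or leave this layer to become the keratin-rich, cornified cells of the surface. Their identity is tied to transcription factors such as p63, KLF4 and GATA3. SOX9 is normally off in these cells and on in the stem cells of the hair follicle, and sustained SOX9 is known from basal cell carcinoma, a tumour of the skin. When skin is wounded, keratinocytes put on another set of keratins (K6, K16, K17) and antimicrobial proteins.

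Values are TPM, transcript abundances per length that add up to a fixed total in each library, so the depth behind them is unknown. Changes are differences of log2(TPM + 1), on which low genes change by less than their ratio of TPM, and are given with their standard error (±, n = 2 libraries in each group). Genes were tested with limma over all 10 libraries of the time course, and a gene is said to be higher or lower where its adjusted *P* (Benjamini-Hochberg) was under 0.05. Statements that D0 and W6 values overlapped or lay apart only describe the 2 libraries of each group. The share of all genes without overlap was not counted. A value marked † belongs to a gene that did not pass this threshold when at least 1 of the 4 D0 and W6 libraries was left out. Over the 13110 genes tested, Pearson's *r* was 0.964 between the D0 replicates, 0.958 between the W6 replicates and 0.856 to 0.907 between D0 and W6. One D0 library went against its label. D0 replicate 2, labelled male, had 4.61 TPM of *Xist* and at most 0.0382 TPM of the Y-linked genes *Ddx3y*, *Eif2s3y*, *Kdm5d* and *Uty*, whereas D0 replicate 1 and both W6 libraries had at most 0.00665 TPM of *Xist* and at least 4.69 TPM of each Y-linked gene. Counts of lists without D0 replicate 2 are therefore given beside those with it.

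The transgene, measured as a separate MYC-SOX9 entry, had 89.6 and 45.6 TPM at D0 and 1108 and 859 TPM at W6. Both W6 libraries were above both D0 libraries (log2 change 3.91 ± 0.32, adjusted *P* = 0.000112). The endogenous *Sox9* gene had 11.5 and 9.47 TPM at D0 and 9.88 and 13.6 TPM at W6, and these values overlapped (log2 change 0.14 ± 0.26, adjusted *P* = 0.706). The transgene entry and the endogenous gene share the *Sox9* coding sequence, so that reads can be split between them and both levels are uncertain.

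The threshold was passed at W6 by 4251 of the 13110 genes (32.4%), of which 2403 (18.3%) were higher and 1848 (14.1%) lower, and the median log2 change of all genes tested was 0.08. The counts of lists given below are to be read beside these shares. After quantile normalization 2091 were higher and 2073 lower, and the median was −0.003. Without D0 replicate 2 the number fell to 2356 genes, 1312 higher and 1044 lower, with the single D0 library assumed to vary like the other groups. With only the 4 libraries of D0 and W6 in the fit, it fell to 1094.

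**Figure D1:**
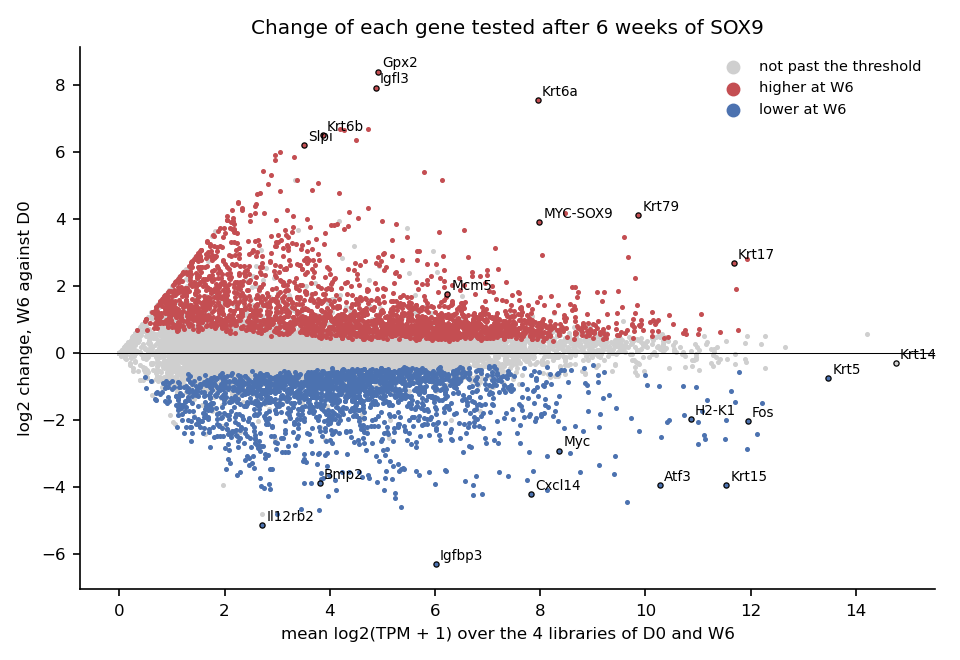
The log2 change of each of the 13110 genes tested at W6 against D0 (y axis) is plotted over its mean log2(TPM + 1) in the 4 libraries (x axis), with genes past the threshold coloured and some genes of the text named. *Krt6a* lies far above the other abundant genes with a log2 change of 7.55, and *Krt15* lies at −3.92, while *Krt14*, the most abundant, lies at −0.28.

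Most of the largest rises were of genes that were low at D0. *Gpx2*, a glutathione peroxidase that reduces hydroperoxides, had 0.680 and 0.607 TPM at D0 and 1349 and 231 TPM at W6 (log2 change 8.41 ± 0.63, adjusted *P* = 8.28e-05). *Igfl3*, a secreted protein of the IGF-like family, had 2.01 and 0.170 TPM at D0 and 624 and 338 TPM at W6 (log2 change 7.94 ± 0.47, adjusted *P* = 4.58e-05). *Krt6a* (chromosome 15, 101689910 to 101694307, GRCm38), the wound keratin, had 22.1 and 13.2 TPM at D0 and 4424 and 2603 TPM at W6 and rose 199-fold in mean TPM (log2 change 7.55 ± 0.47, adjusted *P* = 5.54e-05). In each of these genes both W6 libraries were far above both D0 libraries, and the W6 libraries differed most from each other in *Gpx2*. The serine protease gene *Klk6* had 1.21 and 0.453 TPM at D0 and 337 and 103 TPM at W6 (log2 change 6.71 ± 0.51, adjusted *P* = 9.27e-05). The keratin gene *Krt42* had 0.972 and 0.840 TPM at D0 and 106 and 354 TPM at W6 (log2 change 6.67 ± 0.48, adjusted *P* = 7.69e-05). *Crabp2*, encoding a binding protein of retinoic acid, had 10.3 and 5.31 TPM at D0 and 529.6 and 249 TPM at W6 (log2 change 5.43 ± 0.43, adjusted *P* = 9.98e-05). *Nkd2*, an inhibitor of WNT signalling, had 0.403 and 0.206 TPM at D0 and 49.9 and 114 TPM at W6 (log2 change 5.88 ± 0.42, adjusted *P* = 7.08e-05). All of these genes were below 15 TPM in both D0 libraries but *Krt6a*. The carbonic anhydrase gene *Car2* had 0.108 and 0.0138 TPM at D0 and 26.4 and 121 TPM at W6 (log2 change 5.77 ± 0.56, adjusted *P* = 0.000257). *Cstdc5*, a stefin-like protease inhibitor gene of a cluster of close copies between which reads can be split, had 38.8 and 2.38 TPM at D0 and 241 and 729.9 TPM at W6 (log2 change 5.18 ± 0.97, adjusted *P* = 0.00525). *Sprr1b*, *Krt6b*, *Slpi*, *Prl2c3* and *S100a9*, described below, were also among the 15 largest rises.

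Of the 15 largest falls, *Igfbp3*, which binds IGFs outside the cell, had 551 and 595 TPM at D0 and 1.32 and 21.8 TPM at W6 (log2 change −6.30 ± 0.83, adjusted *P* = 0.00105). *Il12rb2*, a subunit of the IL-12 receptor, had 27.04 and 53.1 TPM at D0 and 0.105 and 0.112 TPM at W6 (log2 change −5.14 ± 0.30, adjusted *P* = 4.58e-05). The chemokine-binding receptor gene *Ccrl2* had 27.9 and 60.0 TPM at D0 and 0.631 and 0.394 TPM at W6 (log2 change −4.80 ± 0.38, adjusted *P* = 9.96e-05). These genes were near 0 in W6 replicate 1, and *Igfbp3* kept a higher level in W6 replicate 2. *Cxcl14*, a chemokine made constitutively by skin, had 677 and 1393 TPM at D0 and 51.9 and 52.1 TPM at W6 (log2 change −4.20 ± 0.29, adjusted *P* = 7.04e-05). *Ccn1*, a target of YAP that encodes a matricellular protein, had 2805 and 4956 TPM at D0 and 133 and 222 TPM at W6 (log2 change −4.43 ± 0.54, adjusted *P* = 0.000717). *Thbs1*, encoding thrombospondin 1, had 787 and 1679 TPM at D0 and 86.3 and 53.2 TPM at W6 (log2 change −4.06 ± 0.42, adjusted *P* = 0.000335). *Pmp22*, a membrane protein gene, fell from 145 and 277 to 5.64 and 9.65 TPM (log2 change −4.58 ± 0.38, adjusted *P* = 0.00012). The fibulin gene *Efemp1* fell from 110.3 and 41.9 to 0.759 and 6.29 TPM (log2 change −4.27 ± 0.63, adjusted *P* = 0.00173). As these genes were chosen for values that do not overlap between D0 and W6, this holds for all of them. The log2 changes of the others were −4.67 for *Depp1*, −4.64 for the Golgi mannosidase gene *Man1c1*, −4.31 for the hormone subunit gene *Gpha2*, −4.19 for the hypoxia-responsive *Ndufa4l2*, −4.18 for *Ccdc3* and −4.09 for *Bmp4*, and *Rps2*, at −4.23†, shares reads with processed copies and did not pass the threshold whichever of the 4 libraries was left out.

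SOX proteins bind short DNA motifs, and RefSeq promoters of GRCm38.p6 gave the 250 bases before the start for 10 of the 15 largest rises and 13 of the 15 largest falls. ACAAAG or ACAATG was found, on either strand, in 5 of the 10 and in 1 of the 13. The share was 16.6% over the promoters of 9603 genes tested, 18.4% over the 1731 higher at W6 and 14.1% over the 1446 lower at W6. The AP-1 motif TGACTCA, chosen after the data were seen like the next one, was in 3.28% of all promoters, 4.16% of the higher and 4.01% of the lower. The RUNX motif TGTGGT was in 10.2%, 11.7% and 9.20%. Among the strongest rises and falls the RUNX motif was in 3 of the 10 and 4 of the 13 and the AP-1 motif in none. These matches describe the sequence and are no sites. The 5 promoters of strong risers with a SOX motif are printed to show where it lies, 5′ to 3′ on the strand of the gene and ending at the base before the start, with the motif in capitals. They were chosen after their values were seen, and lie at chr12:76795555-76795804, minus strand, for *Gpx2*, chr7:18176244-18176493, plus strand, for *Igfl3*, chr7:43824294-43824543, plus strand, for *Klk6*, chr11:100269952-100270201, minus strand, for *Krt42* and chr2:164356508-164356757, minus strand, for *Slpi*.
Gpx2: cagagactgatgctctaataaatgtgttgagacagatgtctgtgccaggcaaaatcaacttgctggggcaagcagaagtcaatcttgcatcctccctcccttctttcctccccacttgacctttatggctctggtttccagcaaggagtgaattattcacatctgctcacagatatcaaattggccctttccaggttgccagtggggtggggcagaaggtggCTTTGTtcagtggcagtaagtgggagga
Igfl3: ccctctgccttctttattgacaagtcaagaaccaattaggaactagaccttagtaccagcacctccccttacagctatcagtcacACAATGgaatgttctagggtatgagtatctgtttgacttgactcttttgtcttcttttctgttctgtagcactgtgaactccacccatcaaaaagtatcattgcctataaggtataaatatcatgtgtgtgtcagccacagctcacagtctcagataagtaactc
Klk6: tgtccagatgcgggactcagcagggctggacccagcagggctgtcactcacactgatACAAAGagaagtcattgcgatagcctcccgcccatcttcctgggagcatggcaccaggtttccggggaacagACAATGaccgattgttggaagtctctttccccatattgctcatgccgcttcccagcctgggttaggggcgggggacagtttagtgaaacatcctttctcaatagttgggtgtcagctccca
Krt42: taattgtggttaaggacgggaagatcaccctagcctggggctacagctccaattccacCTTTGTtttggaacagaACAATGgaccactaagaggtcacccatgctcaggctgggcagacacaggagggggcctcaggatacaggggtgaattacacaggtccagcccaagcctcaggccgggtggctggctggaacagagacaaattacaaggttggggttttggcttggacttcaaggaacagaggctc
Slpi: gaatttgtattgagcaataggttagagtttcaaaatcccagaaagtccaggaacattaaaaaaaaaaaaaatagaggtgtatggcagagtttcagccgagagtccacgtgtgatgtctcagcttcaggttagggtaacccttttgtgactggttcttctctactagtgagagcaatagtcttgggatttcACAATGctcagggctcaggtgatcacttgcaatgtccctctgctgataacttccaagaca

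The motif starts 28 bases before the start in *Gpx2*, 165 before it in *Igfl3* and 60 before it in *Slpi*. *Klk6* and *Krt42* hold 2 copies each, at 193 and 121 and at 192 and 175 bases before the start. All 5 genes were at or below 2.01 TPM in both D0 libraries and at or above 66.9 TPM in both W6 libraries. Such values follow from their choice among the largest rises. *S100a9*, *Prl2c3* and *Nkd2*, whose promoters held no such motif, were also low at D0 and far higher at W6.

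Keratins and antimicrobial genes of wounded or stressed epidermis were the list with the highest median. Of 19 tested, 14 were higher and 1 lower at W6, with a median log2 change of 3.69, and the same counts were found without D0 replicate 2. *Krt6b* had 1.09 and 0.120 TPM at D0 and 169 and 113 TPM at W6 (log2 change 6.51 ± 0.43, adjusted *P* = 6.9e-05). *Krt16* had 189 and 201 TPM at D0 and 668 and 432 TPM at W6 (log2 change 1.46 ± 0.31, adjusted *P* = 0.00834). *Krt17* had 1147 and 1430.5 TPM at D0 and 11556 and 6011 TPM at W6 (log2 change 2.70 ± 0.30, adjusted *P* = 0.000525). Reads can be shared between *Krt6a* and *Krt6b* and between *Krt14*, *Krt16* and *Krt17*. *Krt79*, a keratin of the upper hair follicle, had 330.4 and 147 TPM at D0 and 6417 and 2375 TPM at W6 (log2 change 4.14 ± 0.50, adjusted *P* = 0.000702). *Krt17* was among the 5 most abundant genes at W6, with *Krt14*, *Krtdap*, *Krt5* and the lipid carrier gene *Apoe*, which had 15612 and 15399.7 TPM at D0 and 29660.1 and 18221 TPM at W6 (log2 change 0.58 ± 0.25, adjusted *P* = 0.107). The log2 change of *Apoe* was 0.23 without W6 replicate 1 and 0.94 without W6 replicate 2. *Slpi*, encoding a protease inhibitor with antimicrobial activity, had 0.527 and 0.148 TPM at D0 and 141 and 66.9 TPM at W6 (log2 change 6.21 ± 0.52, adjusted *P* = 0.00012). *S100a9* had 0.0949 and 0.215 TPM at D0 and 65.2 and 31.8 TPM at W6 (log2 change 5.34 ± 0.55, adjusted *P* = 0.000362). Its partner *S100a8* had 11.9 and 1.20 TPM at D0 and 89.9 and 52.2 TPM at W6 (log2 change 3.70 ± 0.81, adjusted *P* = 0.00982†), and it did not pass the threshold without W6 replicate 1. *Lcn2*, encoding an iron-sequestering lipocalin, had 0.361 and 0.167 TPM at D0 and 33.6 and 6.67 TPM at W6 (log2 change 3.69 ± 0.59, adjusted *P* = 0.00259). In each of them both W6 libraries were above both D0 libraries. The one member that fell was *Krt80*, a keratin of differentiating cells, with 165 and 303 TPM at D0 and 52.5 and 68.7 TPM at W6 (log2 change −1.88 ± 0.26, adjusted *P* = 0.00137). The simple-epithelial keratin genes *Krt8*, with 0.0348 and 0.0390 TPM at D0 and 5.84 and 1.15 TPM at W6 (log2 change 1.89 ± 0.69, adjusted *P* = 0.0669), *Krt18* (log2 change 1.07 ± 0.69, adjusted *P* = 0.263) and *Krt19* (log2 change 0.53 ± 0.69, adjusted *P* = 0.581) did not pass the threshold.

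This list was still moving at W6. Against W2, 11 of its 19 genes were higher and 1 lower, where 7.99% of all genes were higher and 8.31% lower (16.3% in all). *Krt6a* had 201 and 304 TPM at W2 (log2 change 3.77, adjusted *P* = 0.00329) and 4564 and 5379.8 TPM at W12 (log2 change 0.55, adjusted *P* = 0.46). *Krt16* had 43.7 and 46.7 TPM at W2, below D0, and was higher at W6 by 3.54. From W6 to W12, where 6.66% of all genes were higher and 13.5% lower (20.2% in all), 12 of the list were higher and 3 lower. *Slpi* rose to 1126 and 1566 TPM (log2 change 3.76, adjusted *P* = 0.00236) and *Krt19* to 44.4 and 156 TPM (log2 change 5.27, adjusted *P* = 0.00186), while *Krt79* fell to 327 and 528 TPM (log2 change −3.23, adjusted *P* = 0.00422) and *Krt17* to 3309 and 4545 TPM (log2 change −1.10, adjusted *P* = 0.0358). The W12 cells came from grafted skin, so grafting and the longer induction cannot be told apart in these steps.

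Genes of the suprabasal and cornified layers rose as well. Of 18 tested, 11 were higher and 2 lower, with a median of 1.74, and without D0 replicate 2 these were 10 and 3. *Krtdap*, a secreted protein of differentiating keratinocytes, had 3314 and 647 TPM at D0 and 10419 and 10171 TPM at W6 (log2 change 2.81 ± 0.63, adjusted *P* = 0.0112). *Ivl*, encoding the envelope protein involucrin, had 0.963 and 1.01 TPM at D0 and 16.4 and 15.3 TPM at W6 (log2 change 3.08 ± 0.23, adjusted *P* = 8.92e-05). *Cnfn*, encoding cornifelin, had 4.42 and 4.396 TPM at D0 and 170.4 and 32.3 TPM at W6 (log2 change 3.81 ± 0.64, adjusted *P* = 0.00326). *Flg*, encoding filaggrin, had 0.591 and 3.10 TPM at D0 and 38.7 and 13.1 TPM at W6 (log2 change 3.21 ± 0.58, adjusted *P* = 0.00451). The transglutaminase gene *Tgm1*, which cross-links the envelope, had 1.49 and 0.833 TPM at D0 and 16.4 and 5.79 TPM at W6 (log2 change 2.35 ± 0.41, adjusted *P* = 0.00387). The small proline-rich genes of the envelope, listed with the wound genes, rose too. *Sprr1b* had 3.53 and 0.502 TPM at D0 and 473 and 155 TPM at W6 (log2 change 6.70 ± 0.73, adjusted *P* = 0.000462). *Sprr1a* had 59.7 and 36.1 TPM at D0 and 732 and 239 TPM at W6 (log2 change 3.14 ± 0.46, adjusted *P* = 0.0017). W6 values lay above D0 values for all of these genes. The main keratins of the suprabasal layer did not pass the threshold, and their values overlapped. *Krt10* had 1335 and 871 TPM at D0 and 568 and 966 TPM at W6 (log2 change −0.54 ± 0.36, adjusted *P* = 0.277). *Krt1* had 915 and 265 TPM at D0 and 524 and 1098 TPM at W6 (log2 change 0.62 ± 0.57, adjusted *P* = 0.427). The genes that fell were *Krt77* and *Dsg1a*. *Krt77*, a keratin of the interfollicular epidermis, had 349.8 and 187 TPM at D0 and 19.4 and 53.5 TPM at W6 (log2 change −2.95 ± 0.66, adjusted *P* = 0.0112†). The desmosomal cadherin gene *Dsg1a* had 135 and 173 TPM at D0 and 33.5 and 56.0 TPM at W6 (log2 change −1.79 ± 0.28, adjusted *P* = 0.0024).

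Most genes of basal keratins and of the proteins that anchor EpdSCs to the basement membrane were lower. Of 15 genes tested, 12 were lower and none higher, with a median of −1.15, where 14.1% of all genes were lower and 18.3% higher. Without D0 replicate 2, 8 were lower, and with only the 4 libraries of D0 and W6 in the fit 4 were. *Krt15* (chromosome 11, 100131758 to 100135928, GRCm38), a keratin of basal and follicle stem cells, had 11241 and 11928 TPM at D0 and 429 and 1350.1 TPM at W6 and was 13.0-fold lower in mean TPM (log2 change −3.92 ± 0.44, adjusted *P* = 0.000508). *Col17a1*, encoding the hemidesmosomal collagen XVII, had 686 and 1083 TPM at D0 and 217 and 320.2 TPM at W6 (log2 change −1.70 ± 0.25, adjusted *P* = 0.00178). Both W6 libraries were below both D0 libraries in these genes and in *Itga6*, *Itgb4*, *Itga3*, *Lamb3* and *Lama3*. *Itga6*, the gene of integrin α6 on which the cells were sorted, had 196 and 289.7 TPM at D0 and 102 and 111 TPM at W6 (log2 change −1.15 ± 0.20, adjusted *P* = 0.00335). Its partner *Itgb4* had 140.0 and 232 TPM at D0 and 95.0 and 76.7 TPM at W6 (log2 change −1.07 ± 0.27, adjusted *P* = 0.0187†). *Itga3* had 93.1 and 179.6 TPM at D0 and 45.7 and 40.4 TPM at W6 (log2 change −1.57 ± 0.28, adjusted *P* = 0.00398). Genes of laminin chains of the basement membrane fell as well. *Lamb3* had 272 and 478 TPM at D0 and 124 and 102 TPM at W6 (log2 change −1.67 ± 0.25, adjusted *P* = 0.00187), and the log2 change of *Lama3* was −1.44. *Krt5* had 14774 and 14609 TPM at D0 and 9411 and 8227 TPM at W6 (log2 change −0.74 ± 0.17, adjusted *P* = 0.012†). *Krt14*, the partner of *Krt5*, whose promoter drives the activator of the transgene, had 29902 and 31096 TPM at D0 and 24719 and 25508 TPM at W6, and neither it (log2 change −0.28 ± 0.19, adjusted *P* = 0.295) nor *Itgb1* (log2 change −0.22 ± 0.18, adjusted *P* = 0.373) nor *Cd151* (log2 change 0.52 ± 0.34, adjusted *P* = 0.265) passed the threshold.

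**Figure D2:**
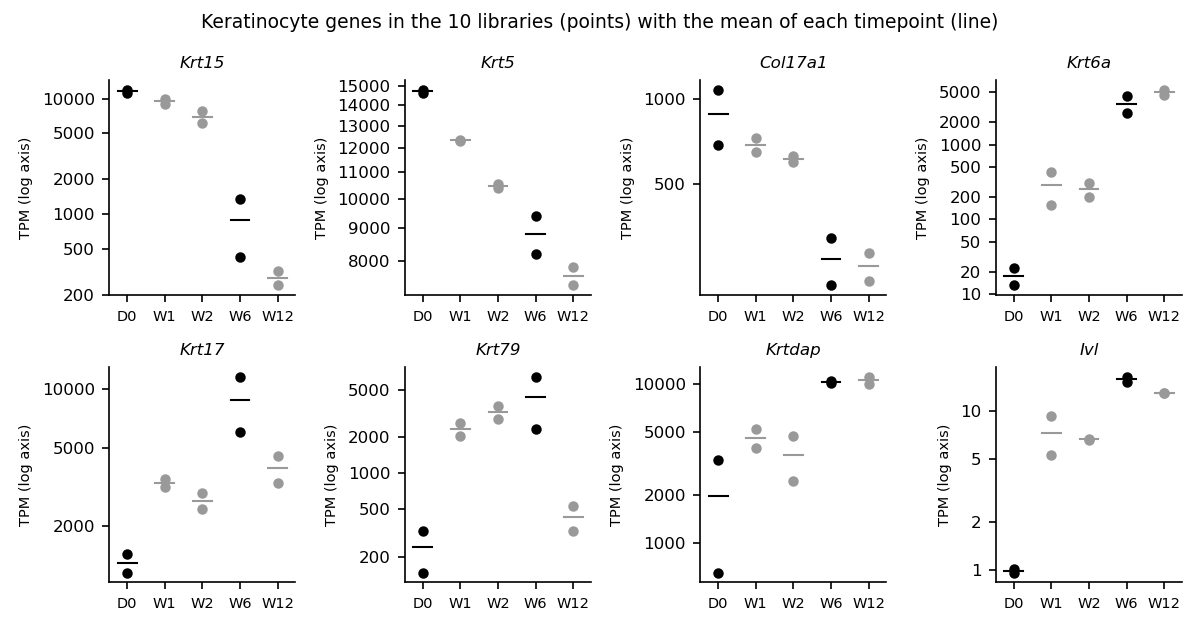
TPM (log axis) of 8 keratinocyte genes are plotted for each of the 10 libraries at the 5 timepoints (points), with timepoint means (lines) and D0 and W6 in black. *Krt15* drops between W2 and W6, *Krt5* is lower at each timepoint than at the one before, and *Krt6a* and *Ivl* are above D0 in every later library.

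Against W2, 11 of the 15 genes were lower at W6. *Krt15* still had 7757 and 6166 TPM at W2 (log2 change −3.18, adjusted *P* = 0.00445), and *Itga3* 156 and 145 TPM (log2 change −1.78, adjusted *P* = 0.00674). At W12 the laminin gene *Lama3* was higher than at W6 (log2 change 1.75, adjusted *P* = 0.00079), while *Krt15* was lower still, at 322 and 242 TPM (log2 change −1.44, adjusted *P* = 0.0493). The W6 libraries of *Krt15* were far apart, and W6 replicate 1 lay nearer to the W12 values.

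Among 16 transcription factors of the epidermis, 7 were lower and 2 higher, where 14.1% of all genes were lower and 18.3% higher. With only the 4 libraries of D0 and W6 in the fit, 2 were lower and none higher. The median was −0.63, and it ranged from −0.84 without W6 replicate 1 to −0.39 without W6 replicate 2. *Gata3* had 241 and 346 TPM at D0 and 53.1 and 94.2 TPM at W6 (log2 change −2.01 ± 0.29, adjusted *P* = 0.00167). *Klf4* had 317 and 486 TPM at D0 and 183 and 106 TPM at W6 (log2 change −1.49 ± 0.29, adjusted *P* = 0.00583). *Trp63*, encoding p63, had 291 and 654 TPM at D0 and 159.9 and 181 TPM at W6 (log2 change −1.36 ± 0.31, adjusted *P* = 0.0125†). *Hopx* (−1.10), *Klf5* (−0.94) and *Tfap2c* (−0.63†) were lower too. *Prdm1*, encoding BLIMP1, went up, with 0.386 and 0.844 TPM at D0 and 8.25 and 3.25 TPM at W6 (log2 change 1.97 ± 0.41, adjusted *P* = 0.00797). *Grhl3*, a regulator of terminal differentiation, was the other higher one and had 13.4 and 10.8 TPM at D0 and 56.5 and 19.5 TPM at W6 (log2 change 1.40 ± 0.44, adjusted *P* = 0.0408†). Values of D0 and W6 did not overlap for these 8 genes, but *Grhl3* did not pass the threshold without either D0 library or without W6 replicate 1, *Trp63* without W6 replicate 1 and *Tfap2c* without D0 replicate 2 or W6 replicate 2.

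Of 16 genes of hair follicle stem cells, mostly transcription factors, 6 were higher and none lower, with a median of 0.60, where 32.4% of all genes passed the threshold and 18.3% were higher, and 5 were higher without D0 replicate 2. Leaving out D0 replicate 1 made 2 lower, and leaving out W6 replicate 1 made 1 lower. *Foxc1* had 4.64 and 2.76 TPM at D0 and 34.4 and 19.1 TPM at W6 (log2 change 2.53 ± 0.28, adjusted *P* = 0.000508). *Cd200*, a surface protein of bulge cells, had 3.14 and 5.69 TPM at D0 and 23.6 and 36.1 TPM at W6 (log2 change 2.52 ± 0.40, adjusted *P* = 0.00249). *Tbx1* (1.08†), *Foxp1* (1.07†), *Tcf3* (0.99†) and *Vdr*, the vitamin D receptor (0.62†), were the others. *Foxc1* and *Cd200* passed the threshold whichever library was left out, *Tbx1* and *Tcf3* lost it in 3 of the 4 cases, *Vdr* in 2 and *Foxp1* in 1. Several members stood higher at W2 than at W6. *Vdr* fell from 198 and 166 TPM at W2 to 84.0 and 73.1 TPM at W6 (log2 change −1.20, adjusted *P* = 0.0039). *Lrig1*, a brake on EGFR signalling, fell from 242 and 215 TPM to 121 and 36.8 TPM (log2 change −1.75, adjusted *P* = 0.0327). *Lrig1* at W6 overlapped with D0, where it had 57.3 and 75.0 TPM (log2 change 0.03 ± 0.44, adjusted *P* = 0.967). *Lhx2* (log2 change −0.43 ± 0.35, adjusted *P* = 0.367) and *Lgr5* (log2 change 1.20 ± 0.51, adjusted *P* = 0.103), genes of the bulge, did not pass it either.

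The RUNX and tumour-linked factors moved both ways, with 4 of 11 higher and 3 lower, where 18.3% of all genes were higher and 14.1% lower. Without D0 replicate 2 the counts were again 4 and 3, but *Runx2* no longer passed the threshold. *Runx1* had 6.98 and 8.04 TPM at D0 and 42.5 and 54.0 TPM at W6 (log2 change 2.53 ± 0.21, adjusted *P* = 0.000128). *Runx2* had 0.876 and 0.595 TPM at D0 and 2.86 and 2.21 TPM at W6 (log2 change 1.02 ± 0.26, adjusted *P* = 0.0174†). Their partner *Cbfb* had 30.9 and 36.4 TPM at D0 and 60.6 and 48.0 TPM at W6 (log2 change 0.67 ± 0.18, adjusted *P* = 0.0227†). *Ehf*, an ETS factor of epithelia, had 14.9 and 18.95 TPM at D0 and 63.2 and 53.3 TPM at W6 (log2 change 1.73 ± 0.17, adjusted *P* = 0.000257). *Myc* had 697 and 1161 TPM at D0 and 130.4 and 109.8 TPM at W6 (log2 change −2.90 ± 0.46, adjusted *P* = 0.00249). *Ets2* had 256 and 529.9 TPM at D0 and 61.6 and 52.3 TPM at W6 (log2 change −2.68 ± 0.33, adjusted *P* = 0.000722). *Ets1* had 10.7 and 14.9 TPM at D0 and 3.92 and 3.82 TPM at W6 (log2 change −1.49 ± 0.23, adjusted *P* = 0.002). The D0 and W6 values of these 7 genes did not overlap, and 2 genes stayed higher without W6 replicate 1, which left out *Runx2* and *Cbfb*. *Sox2*, *Sox11* and *Twist1* had at most 0.386 TPM in each of the 4 libraries and were not tested.

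AP-1 genes were lower almost throughout. Of 13 tested, 11 were lower and none higher, where 14.1% of all genes were lower and 18.3% higher. The median was −2.04, the lowest of the lists, which were chosen with earlier results known. *Atf3* had 3508 and 6572 TPM at D0 and 311 and 323 TPM at W6 (log2 change −3.92 ± 0.64, adjusted *P* = 0.00271). *Junb* had 5321 and 9271 TPM at D0 and 1333 and 1077 TPM at W6 (log2 change −2.55 ± 0.39, adjusted *P* = 0.002). *Fos* had 7385 and 8547 TPM at D0 and 1986 and 1916 TPM at W6 (log2 change −2.03 ± 0.37, adjusted *P* = 0.00472). *Fosl1* had 613 and 993 TPM at D0 and 83.5 and 55.6 TPM at W6 (log2 change −3.50 ± 0.52, adjusted *P* = 0.00173). D0 replicate 2 was the highest library in each of these genes. Of 18 immediate-early and stress genes, 10 were lower and none higher, with a median of −1.82. *Egr1* had 1932 and 4700.2 TPM at D0 and 497 and 563 TPM at W6 (log2 change −2.51 ± 0.47, adjusted *P* = 0.00538). *Nr4a1* had 1517 and 3649.7 TPM at D0 and 235 and 158 TPM at W6 (log2 change −3.60 ± 0.55, adjusted *P* = 0.00211). *Dusp1*, an ERK and p38 phosphatase gene, had 4285 and 6074 TPM at D0 and 869 and 1033 TPM at W6 (log2 change −2.43 ± 0.34, adjusted *P* = 0.00134). Without D0 replicate 2, 10 AP-1 and 10 immediate-early genes were lower, and without W6 replicate 1 1 AP-1 gene was higher. These genes also respond to tissue dissociation, and the summed TPM of the immediate-early list were 15922 and 27896 at D0, 5411 and 3910 at W1 and 5252 and 4460 at W6. The part of cell handling in this difference was not tested.

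**Figure D3:**
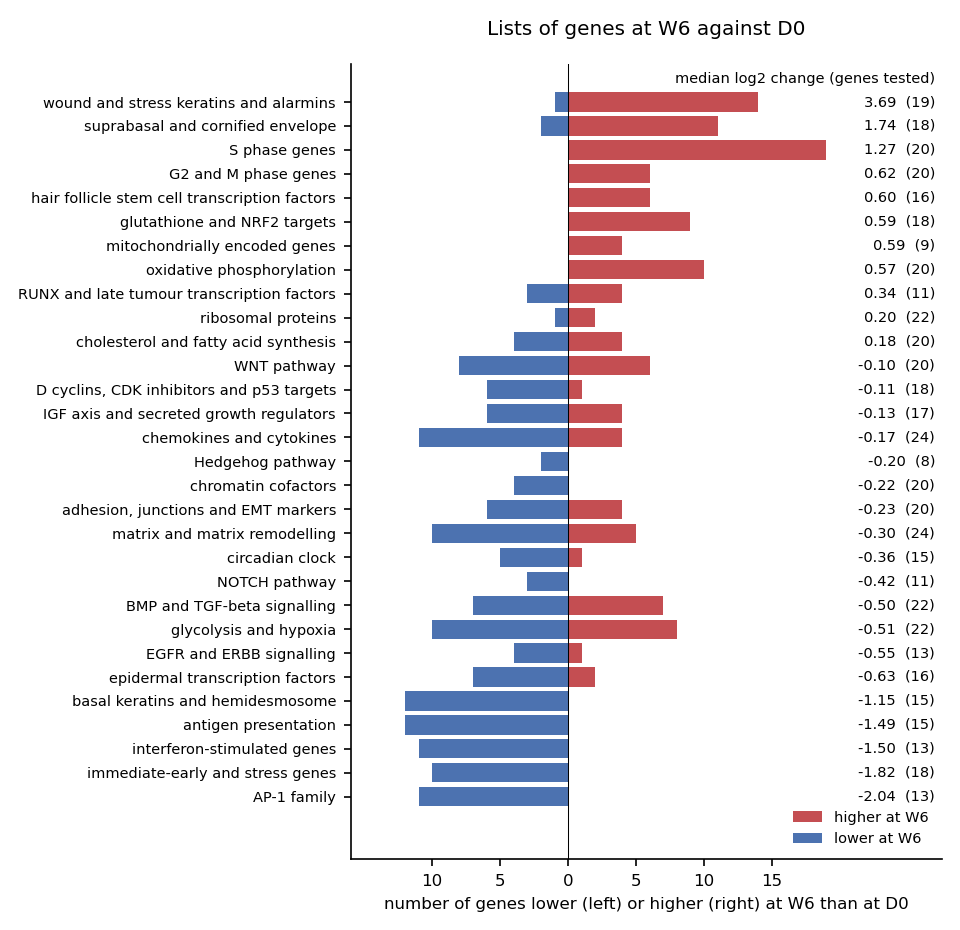
For each list with at least 8 genes tested, the number of genes higher (red, right) and lower (blue, left) at W6 than at D0 is plotted, with the median log2 change and the number tested printed at the right. Lists are ordered by the median, from 3.69 for wound keratins and alarmins to −2.04 for the AP-1 family.

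The ligand genes *Bmp2* and *Bmp4*, whose products restrain growth in skin, fell. *Bmp2* had 49.3 and 56.2 TPM at D0 and 2.43 and 2.92 TPM at W6 (log2 change −3.87 ± 0.20, adjusted *P* = 4.1e-05). *Bmp4* had 74.9 and 66.8 TPM at D0 and 1.31 and 6.73 TPM at W6 (log2 change −4.09 ± 0.45, adjusted *P* = 0.000474). *Id3*, a target of BMP signalling, had 419 and 573 TPM at D0 and 86.2 and 67.9 TPM at W6 (log2 change −2.66 ± 0.32, adjusted *P* = 0.000663), whereas *Id1* did not pass the threshold (log2 change −0.75 ± 0.31, adjusted *P* = 0.0966). *Bmp7* went the other way, with 29.2 and 33.8 TPM at D0 and 120.3 and 78.0 TPM at W6 (log2 change 1.59 ± 0.20, adjusted *P* = 0.000837). So did the activin subunit genes *Inhba* (1.82) and *Inhbb*. *Inhbb* had 2.75 and 2.37 TPM at D0 and 25.6 and 21.6 TPM at W6 (log2 change 2.79 ± 0.20, adjusted *P* = 8e-05). *Fst*, encoding the activin inhibitor follistatin, had 91.8 and 33.3 TPM at D0 and 173 and 461 TPM at W6 (log2 change 2.33 ± 0.53, adjusted *P* = 0.0119†). The other TGF-beta genes were split. The ligand gene *Tgfb2* (−1.54) and the receptor genes *Tgfbr2* (−1.14) and *Tgfbr3* (−1.05) were lower and *Tgfb3* (1.20) higher. In all, 7 of 22 BMP and TGF-beta genes rose and 7 fell, where 18.3% of all genes rose and 14.1% fell. The median was −0.50, but −0.27 without D0 replicate 2, −0.33 without W6 replicate 1 and −0.34 without W6 replicate 2. *Id4* was one of the higher, but W6 replicate 2 stood apart, as it had 5.13 and 4.04 TPM at D0 and 10.2 and 80.6 TPM at W6 (log2 change 2.44 ± 0.72, adjusted *P* = 0.0313†), with a log2 change of 1.01 without that library, and it did not pass the threshold without either D0 library.

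Of 20 WNT genes, 6 rose and 8 fell, with a median of −0.10 (0.03 when corrected for gene length and GC content). All 6 ligand genes tested were lower, *Wnt3* and *Wnt7b* by the most, though *Wnt5a* did not pass the threshold without either D0 library or without W6 replicate 1, and *Wnt10b* without D0 replicate 2 or W6 replicate 1. *Wnt3* had 138 and 144 TPM at D0 and 5.96 and 22.8 TPM at W6 (log2 change −3.46 ± 0.46, adjusted *P* = 0.00112). *Wnt7b* had 86.8 and 131 TPM at D0 and 9.97 and 11.4 TPM at W6 (log2 change −3.20 ± 0.25, adjusted *P* = 9.96e-05). *Wnt4* had 103 and 106 TPM at D0 and 27.7 and 34.5 TPM at W6 (log2 change −1.72 ± 0.14, adjusted *P* = 0.000112). *Wnt10a* (−1.07), *Wnt5a* (−1.46†) and *Wnt10b* (−1.23†) were the others, and *Axin2*, a general WNT target gene, was lower too (−1.17†). The receptor genes were split. *Fzd7* was higher and had 8.10 and 6.64 TPM at D0 and 35.8 and 25.8 TPM at W6 (log2 change 1.91 ± 0.21, adjusted *P* = 0.000499), as was *Fzd1* by 0.81†. *Fzd10* was lower and had 31.6 and 49.4 TPM at D0 and 14 and 9.88 TPM at W6 (log2 change −1.67 ± 0.26, adjusted *P* = 0.00218). Of the inhibitors, *Nkd2* and *Dkk3* (1.48†) were higher. *Wif1*, another one, had 0.152 and 0.344 TPM at D0 and 1.03 and 33.8 TPM at W6 (log2 change 2.76 ± 1.01, adjusted *P* = 0.0677), with the W6 libraries far apart. Leaving out D0 replicate 2 left 6 WNT genes higher and 5 lower, and leaving out W6 replicate 1 left 3 and 5.

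Of 13 EGFR and ERBB genes 4 were lower and 1 higher. Counted in both directions, the shares called in this list and in the NOTCH and Hedgehog lists were close to the 32.4% called among all genes. Most of the called genes of these lists were lower, whereas 14.1% of all genes were lower and 18.3% higher. *Egfr* had 59.9 and 74.9 TPM at D0 and 22.2 and 31.1 TPM at W6 (log2 change −1.32 ± 0.19, adjusted *P* = 0.00172). Its ligand gene *Epgn* had 299.6 and 197 TPM at D0 and 17.7 and 24.7 TPM at W6 (log2 change −3.48 ± 0.24, adjusted *P* = 7.04e-05). The ligand gene *Hbegf* had 181 and 317 TPM at D0 and 85.1 and 59.6 TPM at W6 (log2 change −1.73 ± 0.29, adjusted *P* = 0.00319). Another ligand gene, *Ereg*, had 0.319 and 0.258 TPM at D0 and 5.78 and 4.75 TPM at W6 (log2 change 2.28 ± 0.21, adjusted *P* = 0.000228). *Epgn* and *Hbegf* had been lower at W2, with 9.89 and 8.11 and 22.7 and 15.97 TPM, and were higher at W6 than at W2 (1.14 and 1.85). *Fgfr2* had 222 and 395 TPM at D0 and 44.7 and 56.9 TPM at W6 (log2 change −2.53 ± 0.26, adjusted *P* = 0.000334). *Fgfr3* had 135 and 268 TPM at D0 and 32.3 and 30.7 TPM at W6 (log2 change −2.55 ± 0.27, adjusted *P* = 0.000425). Of 11 NOTCH genes 3 were lower and none higher. The target gene *Hes1* had 879.7 and 744 TPM at D0 and 101 and 89.9 TPM at W6 (log2 change −3.07 ± 0.33, adjusted *P* = 0.000399). The ligand gene *Dll1* had 54.5 and 136 TPM at D0 and 13.3 and 8.72 TPM at W6 (log2 change −2.89 ± 0.41, adjusted *P* = 0.00152). The ligand gene *Jag2* had 242 and 404 TPM at D0 and 129 and 74.3 TPM at W6 (log2 change −1.66 ± 0.31, adjusted *P* = 0.00496). D0 and W6 did not overlap in any of these. *Notch1* did not pass the threshold (log2 change −0.82 ± 0.31, adjusted *P* = 0.0722). Of 8 Hedgehog genes *Smo* (−0.77†) and *Cdon* (−1.95) were lower, and the pathway's target gene *Gli1*, at 0.496 and 0.153 TPM at D0 and 0.552 and 1.36 TPM at W6, was too low to be tested. Leaving out D0 replicate 1 raised the lower EGFR and NOTCH genes to 7 and 5. Leaving out D0 replicate 2 gave 2 higher EGFR genes, 3 lower NOTCH genes and 1 lower Hedgehog gene, and leaving out W6 replicate 2 1 lower and 1 higher Hedgehog gene.

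Genes of DNA replication were higher. Of 20 S phase genes 19 were higher and none lower, with a median of 1.27, and the remaining gene, *Ccne2*, missed the threshold (log2 change 1.34 ± 0.47, adjusted *P* = 0.0585). *Mcm5*, a subunit of the replicative helicase, had 59.7 and 26.1 TPM at D0 and 132 and 144 TPM at W6 (log2 change 1.77 ± 0.33, adjusted *P* = 0.00481). *Rrm2*, a subunit of ribonucleotide reductase, had 51.0 and 16.7 TPM at D0 and 173 and 163 TPM at W6 (log2 change 2.48 ± 0.41, adjusted *P* = 0.00283). *Ccne1*, encoding cyclin E1, had 7.04 and 1.82 TPM at D0 and 19.5 and 20.2 TPM at W6 (log2 change 2.13 ± 0.42, adjusted *P* = 0.00646). W6 libraries were above both D0 libraries in each of these, and D0 replicate 2 was the lowest library of the 4. Of 20 genes of G2 and mitosis 6 were higher and none lower, where 18.3% of all genes were higher and 14.1% lower (32.4% in all). The median was 0.62, but 0.17 without D0 replicate 2 and 0.94 without D0 replicate 1. *Birc5*, encoding survivin, had 112 and 58.4 TPM at D0 and 174 and 203 TPM at W6 (log2 change 1.21 ± 0.26, adjusted *P* = 0.00898), with a log2 change of 0.75 without D0 replicate 2. The kinase gene *Plk1* had 40.0 and 28.5 TPM at D0 and 69.3 and 54.0 TPM at W6 (log2 change 0.84 ± 0.23, adjusted *P* = 0.0253†). *Mki67*, with 25.4 and 10.7 TPM at D0 and 23.4 and 29.1 TPM at W6 (log2 change 0.62 ± 0.33, adjusted *P* = 0.178), and *Top2a* (log2 change 0.52 ± 0.32, adjusted *P* = 0.249) did not pass the threshold. These counts moved with the libraries, as without D0 replicate 2 12 S phase genes and 1 mitotic gene were higher, without D0 replicate 1 20 and 14, without W6 replicate 2 12 and 2, and with only the 4 libraries in the fit 5 and 0.

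**Figure D4:**
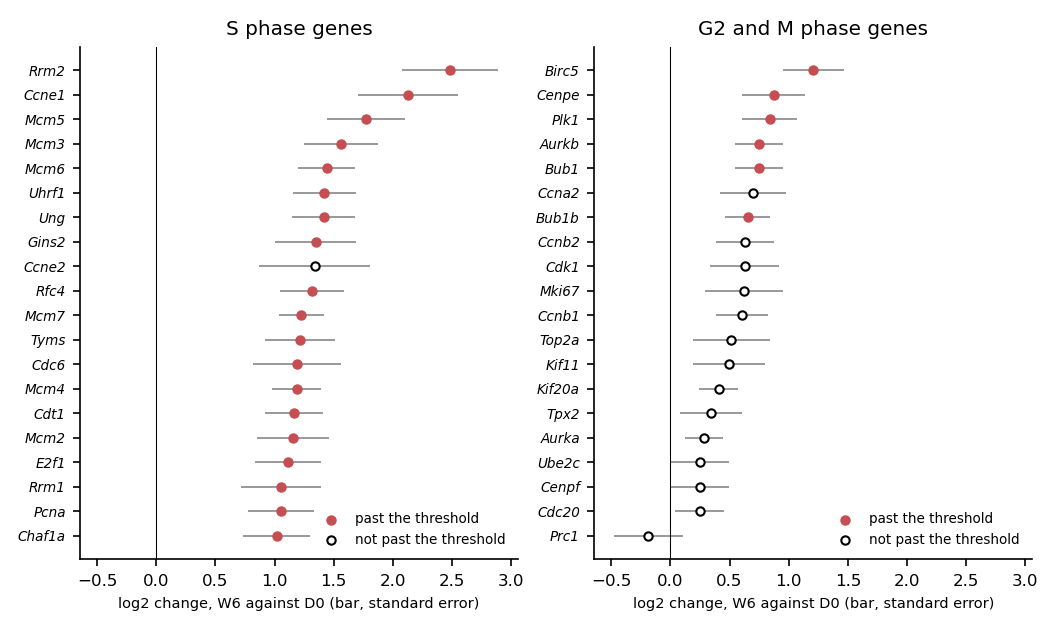
The log2 change at W6 against D0 (x axis) is plotted for each of the 20 S phase genes (left) and 20 G2 and M phase genes (right), with standard errors (bars) and filled points for genes past the threshold. All S phase genes lie above 1, whereas most G2 and M phase genes lie between 0 and 1.

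Of 18 genes of D cyclins, CDK inhibitors and p53 targets, 6 were lower and 1 higher, where 14.1% of all genes were lower and 18.3% higher (32.4% in all). Their median log2 change was −0.11, or −0.22 without D0 replicate 2. *Trp53inp1* had 72.7 and 87.4 TPM at D0 and 5.64 and 6.17 TPM at W6 (log2 change −3.55 ± 0.24, adjusted *P* = 6.9e-05). *Cdkn1a*, encoding the CDK inhibitor p21, had 971 and 1539.6 TPM at D0 and 528 and 300.3 TPM at W6 (log2 change −1.61 ± 0.28, adjusted *P* = 0.00375). The apoptosis gene *Bbc3* had 29.1 and 24.7 TPM at D0 and 9.54 and 8.82 TPM at W6 (log2 change −1.45 ± 0.18, adjusted *P* = 0.000766). The other 3 lower genes were *Mdm2*, *Pmaip1* and *Ccng1* (−1.07, −1.05 and −0.64). *Cdkn1b*, encoding p27, was the higher one (log2 change 0.57 ± 0.16, adjusted *P* = 0.0243†), and it did not pass the threshold without either D0 library or without W6 replicate 2. The D cyclin gene *Ccnd1* had overlapping values, with 36.8 and 51.3 TPM at D0 and 29.5 and 65.8 TPM at W6 (log2 change 0.02 ± 0.37, adjusted *P* = 0.973).

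Interferon-stimulated genes and the MHC class I pathway, which presents peptides to T cells, were lower at W6. Of 13 interferon-stimulated genes tested, 11 were lower and none higher, with a median of −1.498, and of 15 antigen presentation genes 12 were lower and none higher, with a median of −1.49. Without D0 replicate 2 these were 7 and 8. *H2-K1*, a class I heavy chain gene, had 3283 and 4106 TPM at D0 and 862 and 1014 TPM at W6 (log2 change −1.97 ± 0.22, adjusted *P* = 0.000511). *B2m*, its light chain, had 3362 and 4113 TPM at D0 and 1247 and 1645 TPM at W6 (log2 change −1.38 ± 0.23, adjusted *P* = 0.00291). Reads of *H2-K1*, *H2-D1* and *H2-Q4* can be shared between them. The immunoproteasome subunit gene *Psmb9* had 153 and 212 TPM at D0 and 32.4 and 54.0 TPM at W6 (log2 change −2.08 ± 0.28, adjusted *P* = 0.0012). The peptide transporter gene *Tap1* had 100.3 and 174 TPM at D0 and 48.5 and 44.5 TPM at W6 (log2 change −1.49 ± 0.26, adjusted *P* = 0.00394). *Nlrc5*, the transactivator of class I genes, had 14.2 and 24.6 TPM at D0 and 5.02 and 8.47 TPM at W6 (log2 change −1.39 ± 0.30, adjusted *P* = 0.00951†). *Usp18*, a negative regulator of the interferon receptor, had 25.1 and 33.0 TPM at D0 and 0.393 and 1.31 TPM at W6 (log2 change −4.05 ± 0.28, adjusted *P* = 7.04e-05). The transcription factor gene *Irf7* had 8.63 and 11.4 TPM at D0 and 1.71 and 1.70 TPM at W6 (log2 change −2.01 ± 0.28, adjusted *P* = 0.00129). Both W6 libraries were below both D0 libraries in all 7 genes.

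**Figure D5:**
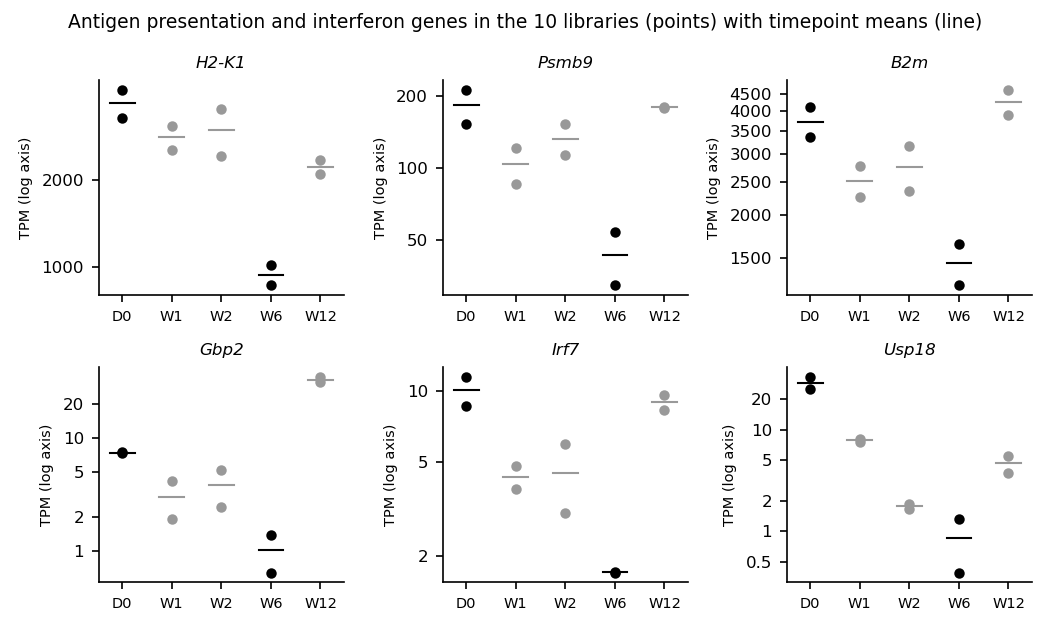
TPM (log axis) of 3 antigen presentation genes (top) and 3 interferon-stimulated genes (bottom) are plotted for each library at the 5 timepoints (points), with timepoint means (lines) and D0 and W6 in black. Both W6 libraries are the lowest of the 10 in each gene, and at W12 *B2m* and *Gbp2* lie within or above their D0 range.

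The antigen presentation genes fell after W2, as 11 of 15 were lower at W6 than at W2 and none higher. *H2-K1* had 3514 and 2422 TPM at W2 (log2 change −1.64, adjusted *P* = 0.00409) and *Tap1* 181 and 132 TPM (log2 change −1.71, adjusted *P* = 0.00638). Of the interferon-stimulated genes 6 were lower at W6 than at W2. At W12 9 antigen presentation and 11 interferon-stimulated genes were higher than at W6. *Gbp2*, an interferon-induced GTPase gene, had 7.50 and 7.40 TPM at D0 and 0.636 and 1.39 TPM at W6 (log2 change −2.09 ± 0.36, adjusted *P* = 0.00337) and 31.4 and 35.03 TPM at W12 (log2 change 4.11, adjusted *P* = 0.000183). The class II chaperone gene *Cd74* had 26.4 and 14.8 TPM at D0 and 3.20 and 2.09 TPM at W6 (log2 change −2.53 ± 0.31, adjusted *P* = 0.000761) and 102 and 124 TPM at W12 (log2 change 4.98, adjusted *P* = 3.49e-05). The W12 cells grew in grafts on immunocompromised hosts, and their libraries also had 54.5 and 119.8 TPM of 5 endothelial markers in sum, against 0.905 and 1.52 TPM at W6, 191.0 and 191.8 TPM of 6 muscle and red cell markers, against 10.8 and 6.31 TPM, and 5.51 and 3.50 TPM of *Xist* beside the Y-linked genes, so other cells and the graft cannot be told apart from the longer induction.

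Of 24 chemokine and cytokine genes tested, 11 were lower and 4 higher, or 8 and 2 without D0 replicate 2. *Ccl27a*, the skin-homing chemokine of resting epidermis, had 5108 and 5349 TPM at D0 and 428 and 1500.1 TPM at W6 (log2 change −2.70 ± 0.49, adjusted *P* = 0.00443). The alarmin gene *Il33* had 113 and 154 TPM at D0 and 1.95 and 20.5 TPM at W6 (log2 change −4.06 ± 0.73, adjusted *P* = 0.00437). The decoy receptor gene *Il1r2* had 410.3 and 419.8 TPM at D0 and 9.55 and 68.7 TPM at W6 (log2 change −3.94 ± 0.69, adjusted *P* = 0.00371). *Il34*, a growth factor of Langerhans cells, had 60.9 and 109 TPM at D0 and 17.5 and 37.4 TPM at W6 (log2 change −1.63 ± 0.43, adjusted *P* = 0.0211†), and *Vegfa* was lower as well (−1.07†). The W6 libraries were apart from each other in *Il33* and *Il1r2* but below D0 in both. *Il18* (1.98), *Cxcl2* (1.15†), *Il24* (0.95†) and *Pthlh*, a hormone-like peptide gene, with 3.47 and 5.30 TPM at D0 and 26.8 and 16.6 TPM at W6 (log2 change 2.06 ± 0.26, adjusted *P* = 0.000881), were higher. *Il6* was lower at W6, with 3.40 and 2.64 TPM at D0 and 0.409 and 0.278 TPM at W6 (log2 change −1.58 ± 0.30, adjusted *P* = 0.00554), and higher again at W12, with 70.6 and 118 TPM (log2 change 6.10, adjusted *P* = 8.76e-06).

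Of 22 genes of glycolysis and hypoxia 8 were higher and 10 lower. The genes that were higher encode enzymes of glycolysis. *Ldha*, encoding lactate dehydrogenase A, had 964 and 769 TPM at D0 and 1699.8 and 1708 TPM at W6 (log2 change 0.98 ± 0.16, adjusted *P* = 0.0031). *Eno1*, encoding enolase, had 349 and 279.8 TPM at D0 and 717 and 714 TPM at W6 (log2 change 1.19 ± 0.17, adjusted *P* = 0.00138). *Pkm*, *Pgk1*, *Gapdh*, *Hk2*, *Pgam1* and *Gpi1* were higher by 0.52† to 1.73†, and † holds for *Gapdh* and *Pgam1* too. Of those lower, *Adm*, encoding adrenomedullin, had 47.3 and 46.3 TPM at D0 and 1.75 and 2.84 TPM at W6 (log2 change −3.88 ± 0.37, adjusted *P* = 0.000235). *Bnip3*, a mitophagy gene, had 62.4 and 92.3 TPM at D0 and 7.97 and 18.1 TPM at W6 (log2 change −2.56 ± 0.35, adjusted *P* = 0.00123). *Ndrg1* had 58.0 and 118 TPM at D0 and 14.4 and 16.8 TPM at W6 (log2 change −2.34 ± 0.34, adjusted *P* = 0.00156), and *Hif1a* (−0.96†) and the lactate exporter gene *Slc16a3* (−1.68) were lower too. D0 and W6 values were apart in each. When D0 replicate 2 was left out, 4 of these genes were higher and 6 lower, and the higher ones numbered 4 and 5 without W6 replicate 1 and replicate 2. Of 20 genes of oxidative phosphorylation 10 were higher and none lower, led by *Ndufa4*, with 514 and 190.5 TPM at D0 and 1139 and 1107 TPM at W6 (log2 change 1.84 ± 0.37, adjusted *P* = 0.00743). The median of this list was 0.57, but 0.31 without D0 replicate 2 and 0.85 without D0 replicate 1. Without D0 replicate 2 6 were higher, without W6 replicate 2 5, without D0 replicate 1 16, and with only the 4 libraries in the fit none was. Of 9 mitochondrially encoded genes 4 were higher, with a median of 0.59, or 0.51 without D0 replicate 2 and 0.33 without W6 replicate 2. Corrected for gene length and GC content, 8 oxidative phosphorylation and 3 mitochondrially encoded genes were higher, with medians of 0.40 and 0.27. Across genes with an annotated length, log2 changes tended to fall with length (Spearman's ρ = −0.245).

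In the list of glutathione and NRF2 response genes none was lower, with 9 of 18 higher, or 7 without D0 replicate 2. Beside *Gpx2*, *Nqo1*, a quinone reductase gene, had 17.5 and 13.9 TPM at D0 and 79.3 and 98.0 TPM at W6 (log2 change 2.42 ± 0.20, adjusted *P* = 0.000112). *Gclm*, a subunit of the rate-limiting enzyme of glutathione synthesis, had 41.8 and 26.0 TPM at D0 and 153 and 152 TPM at W6 (log2 change 2.18 ± 0.22, adjusted *P* = 0.000345). The transferase gene *Gsta4* had 1.96 and 0.855 TPM at D0 and 50.5 and 90.9 TPM at W6 (log2 change 4.88 ± 0.38, adjusted *P* = 9.27e-05), and it rose mainly after W2, when it had 3.83 and 5.63 TPM (log2 change 3.60, adjusted *P* = 0.00173). *Nfe2l2*, which encodes NRF2, had overlapping values and did not pass the threshold (log2 change −0.07 ± 0.16, adjusted *P* = 0.777), nor did *Hmox1* (log2 change 0.78 ± 0.31, adjusted *P* = 0.09). Of 20 genes of cholesterol and fatty acid synthesis, 4 were higher and 4 lower, a share near that of all genes. Those lower included *Hmgcs1*, an enzyme of cholesterol synthesis, with 326 and 307 TPM at D0 and 130.1 and 125 TPM at W6 (log2 change −1.31 ± 0.12, adjusted *P* = 0.000237), and those higher *Scd2*, a fatty acid desaturase, with 28.5 and 18.2 TPM at D0 and 93.1 and 45.8 TPM at W6 (log2 change 1.48 ± 0.39, adjusted *P* = 0.0208†). The higher ones came to 1 both without D0 replicate 2 and without W6 replicate 1.

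The growth factor axis held some of the largest changes in both directions. The proliferin genes, placental hormones of the prolactin family whose copies share reads, were at or near 0 at D0. *Prl2c3* had 0 and 0.0770 TPM at D0 and 48.3 and 89.5 TPM at W6 (log2 change 6.01 ± 0.31, adjusted *P* = 4.1e-05), and *Prl2c5*, listed at 0 in both D0 libraries, had 12.7 and 36.3 TPM at W6. *Prl2c3* was at 0 and 0.497 TPM at W2 (log2 change 5.77, adjusted *P* = 0.000153) and at 977 and 1307 TPM at W12 (log2 change 4.08, adjusted *P* = 9.48e-05). *Gas6*, a ligand of the TAM receptors, had 299 and 509.7 TPM at D0 and 24.9 and 36.2 TPM at W6 (log2 change −3.66 ± 0.26, adjusted *P* = 7.04e-05). *Igfbp6* had 1.37 and 0.482 TPM at D0 and 6.66 and 7.85 TPM at W6 (log2 change 2.13 ± 0.32, adjusted *P* = 0.00196). In all 4 of 17 genes of this list were higher and 6 lower, or 4 and 4 without D0 replicate 2.

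Matrix and junction genes were mixed at W6. Of 24 matrix genes 5 were higher and 10 lower, where 18.3% of all genes were higher and 14.1% lower. The basement membrane gene *Col4a1* had 5.23 and 13.8 TPM at D0 and 0.380 and 1.41 TPM at W6 (log2 change −2.39 ± 0.55, adjusted *P* = 0.0122†). The protease gene *Adam8* had 41.1 and 30.2 TPM at D0 and 2.70 and 2.91 TPM at W6 (log2 change −3.25 ± 0.25, adjusted *P* = 9.27e-05). *Tnc*, encoding tenascin C, had 3.34 and 3.10 TPM at D0 and 10.4 and 12.4 TPM at W6 (log2 change 1.55 ± 0.21, adjusted *P* = 0.00128). The inhibitor gene *Timp1* had 0.127 and 0.0286 TPM at D0 and 5.21 and 4.74 TPM at W6 (log2 change 2.47 ± 0.19, adjusted *P* = 9.27e-05). Proteases linked to invasion were low at W6 and higher at W12. *Mmp3* had 8.59 and 7.63 TPM at D0 and 0.296 and 1.76 TPM at W6 (log2 change −2.27 ± 0.33, adjusted *P* = 0.00173) and 61.5 and 80.9 TPM at W12 (log2 change 5.24, adjusted *P* = 3.53e-05), and *Mmp10* and *Mmp13* had at most 0.154 TPM in each D0 and W6 library and 56.5 and 87.9 and 74.3 and 109 TPM at W12. The matrix genes lower at W6 numbered 4 without D0 replicate 2 and 5 without W6 replicate 1. From W6 to W12 12 matrix genes were higher and 1 lower. In the W12 libraries the summed markers of endothelium were at 54.5 and 119.8 TPM and those of muscle and red cells at 191.0 and 191.8 TPM, all above W6, and those of fibroblasts at 13.8 and 28.1 TPM, against 1.72 and 52.3 TPM at W6, and their part in the W12 values of matrix, *Mmp* and *Vim* genes was not tested. Of 20 genes of adhesion, junctions and epithelial–mesenchymal transition (EMT), 4 were higher and 6 lower, with 3 lower without D0 replicate 2 and 2 higher without D0 replicate 1. *Cdh1*, encoding E-cadherin, had 274 and 365 TPM at D0 and 229 and 145 TPM at W6 (log2 change −0.79 ± 0.24, adjusted *P* = 0.0324†). *Epcam*, another epithelial adhesion gene, had 174 and 313 TPM at D0 and 684 and 394 TPM at W6 (log2 change 1.15 ± 0.32, adjusted *P* = 0.0238†). The connexin genes were split. *Gja1* had 426 and 274 TPM at D0 and 79.7 and 166 TPM at W6 (log2 change −1.56 ± 0.33, adjusted *P* = 0.0087). *Gjb2* had 2.06 and 1.04 TPM at D0 and 10.5 and 8.18 TPM at W6 (log2 change 2.04 ± 0.25, adjusted *P* = 0.000766). *Vim*, encoding vimentin, had 0.694 and 0.9754 TPM at D0 and 1.57 and 4.14 TPM at W6 (log2 change 0.99 ± 0.43, adjusted *P* = 0.106) and 53.5 and 104 TPM at W12 (log2 change 4.38, adjusted *P* = 0.000353), and *Snai1*, *Zeb1* and *Zeb2* had at most 0.294 TPM in each of the 4 libraries.

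Ribosomal protein genes, with 2 of 22 higher and 1 lower, had a median of 0.20 (−0.07 when corrected for gene length and GC content), with 0 to 4 higher and 0 to 1 lower when each library was left out in turn. Of 20 chromatin cofactor genes 4 were lower and none higher, where 14.1% of all genes were lower and 18.3% higher (32.4% in all). *Kmt2c*, encoding the histone methyltransferase MLL3, had 15.2 and 20.0 TPM at D0 and 7.65 and 9.28 TPM at W6 (log2 change −0.97 ± 0.20, adjusted *P* = 0.00854†). *Arid1b*, of the BAF complex, had 26.7 and 35.1 TPM at D0 and 14.8 and 15.6 TPM at W6 (log2 change −0.96 ± 0.16, adjusted *P* = 0.00344), whereas *Kmt2d*, encoding MLL4, did not pass the threshold (log2 change −0.32 ± 0.29, adjusted *P* = 0.417). *Kdm6a*, an X-linked demethylase gene, had 21.9 and 43.2 TPM at D0 and 9.90 and 14.8 TPM at W6 (log2 change −1.28 ± 0.30, adjusted *P* = 0.014†), with the highest value in D0 replicate 2. Without that library, 1 chromatin gene was lower, and without D0 replicate 1 7 were lower and 1 higher. With only the 4 libraries in the fit none was lower, and corrected for length and GC content 2 were higher and 4 lower. Of 15 clock genes 5 were lower and 1 higher, where 14.1% of all genes were lower and 18.3% higher. Their median log2 change was −0.36, but 0.25 without D0 replicate 2. *Nr1d1*, with 4.45 and 80.1 TPM at D0 and 40.0 and 3.79 TPM at W6, differed more within the groups than between them. Of 4 imprinted genes tested *Plagl1* was lower (−1.52†), though not past the threshold without D0 replicate 1.

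The libraries carried the markers of the labelled cell type, with *Krt14* at 24719 TPM or more in all 4, but 5 of the 6 epidermal stem cell markers were lower at W6, in sum 57034 and 59602 TPM at D0 and 35032 and 35663 TPM at W6, and 3 were lower without W6 replicate 2 and 4 without D0 replicate 2. Of 4 sort markers tested 1 was higher and 2 were lower, *Itga6* and, except without D0 replicate 1 or W6 replicate 1, *Ly6a*. *Ly6a* had 756 and 565 TPM at D0 and 275 and 421 TPM at W6 (log2 change −0.94 ± 0.23, adjusted *P* = 0.0146†). *Cd34*, against which the cells were sorted, had 0.0614 and 0.383 TPM at D0 and 2.66 and 5.04 TPM at W6 (log2 change 1.96 ± 0.35, adjusted *P* = 0.00442). Summed TPM of 9 immune markers were 2.24 and 2.57 at D0 and 1.95 and 2.79 at W6, with *Ptprc* at 0.2998 TPM or less, and those of 5 endothelial markers 1.60 and 0.501 at D0 and 0.905 and 1.52 at W6, with *Cdh5* at 0.0518 TPM or less. Those of 6 melanocyte markers were 1.27 and 4.93 at D0 and 4.57 and 11.8 at W6, and those of 6 muscle and red cell markers 16.7 and 17.6 at D0 and 10.8 and 6.31 at W6. Of 8 fibroblast markers *Dcn* alone was above 1.08 TPM in any of the 4 libraries, at 1.44 and 1.63 TPM at D0 and 1.46 and 51.2 TPM at W6 (log2 change 2.16 ± 1.11, adjusted *P* = 0.163), and *Pdgfra* and *Col1a1* had at most 0.458 TPM in all 4. W6 replicate 2 stood apart in *Dcn*, as in *Id4* and *Wif1*. Summed TPM of 8 sebocyte markers were 85.4 and 79.2 at D0 and 387 and 297 at W6, and all 4 members tested had a log2 change above 0, with a median of 1.70. Of them *Mgst1* and *Scd3* were higher. *Mgst1* had 44.2 and 28.3 TPM at D0 and 304 and 229.7 TPM at W6 (log2 change 2.87 ± 0.24, adjusted *P* = 0.00013). *Scd3* had 0.243 and 0.265 TPM at D0 and 19.8 and 12.2 TPM at W6 (log2 change 3.72 ± 0.29, adjusted *P* = 9.27e-05). *Awat2* and *Elovl3*, which mark sebocytes more strictly, had at most 1.95 TPM. Of 5 hair follicle bulge markers tested 1 was higher and 1 lower, also without D0 replicate 2, but 2 were lower without D0 replicate 1 and 2 higher without W6 replicate 1. A smaller share of a cell type and less RNA per cell cannot be told apart in bulk RNA.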

How the data were processed

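Libraries had been made from sorted EpdSCs with a low-input SMARTer kit and sequenced paired-end on a NovaSeq by the study's methods (NextSeq or NovaSeq per the labels). The deposited table holds TPM per gene for the 10 libraries of the time course, which the authors obtained with Salmon 1.4.0 and tximport 1.12.3 on GRCm38 (mm10), with the transgene as a separate entry. The 4 other libraries, of SOX9-negative and SOX9-positive cells, and the authors' table of fold changes and P values between them were not used here.

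The 13110 of 54332 genes whose TPM averaged 1 or more across the time course were tested on log2(TPM + 1) with limma 3.58.1 in R 4.3.3, with 1 mean per timepoint, a trended empirical Bayes prior and Benjamini-Hochberg adjustment over all genes tested, at 0.05. The method was tested on simulated data. The *P* values measure the spread between libraries labelled as biological replicates. Positions came from GENCODE M21 on GRCm38, which matched 54097 of the rows. Named genes were the 15 largest rises and 15 largest falls past the threshold whose D0 and W6 values did not overlap and whose higher group averaged 10 TPM or more (unnamed gene models left out, and some genes not reported here), the transgene, the 5 most abundant genes at W6 and members of the lists, and the lists and members were chosen with earlier results of these data known. Alternatives were another minimum, pseudocount, scaling and prior, a length and GC correction, a replicate block, a fit of the 4 libraries alone and leaving out each library.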

Additional observations from a re-analysis of the deposited data

Results flagged for a closer look

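7 genes named here had moved one way from D0 at W6 and the other way at W12, with both changes and the step from W6 to W12 past the threshold in the limma fit. Of these, *Il6* was at −1.58 at W6 and 4.53 at W12 on the log2 scale against D0, a step of 6.10 (adjusted *P* = 8.76e-06). *Mmp3*, a stromelysin gene, was at −2.27 and 2.98, a step of 5.24 (adjusted *P* = 3.53e-05). The class II chaperone gene *Cd74* was at −2.53 and 2.45, a step of 4.98 (adjusted *P* = 3.49e-05). The interferon-induced gene *Gbp2* was at −2.09 and 2.02, a step of 4.11 (adjusted *P* = 0.000183). *Vegfa* was at −1.07 and 0.87, a step of 1.94 (adjusted *P* = 0.00107). The sort marker gene *Ly6a* was at −0.94 and 0.80, a step of 1.74 (adjusted *P* = 0.00184). *Fzd1* turned the other way round, at 0.81 and −0.61, a step of −1.42 (adjusted *P* = 0.00304). Both differences share the D0 libraries, and the W12 libraries, from grafts, also had more RNA of endothelial, muscle and red cell markers, whose part in these changes was not tested. The change at W6 did not pass the threshold without D0 replicate 1 or W6 replicate 1 for *Fzd1* and *Ly6a*, nor without D0 replicate 2 for *Vegfa*.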

How the results depend on the processing

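The number of genes past the threshold, 4251, stayed within 1.5 times of this under 9 alternatives, at 3102 with every gene with a TPM above 0 tested and at 3487 to 4478 under a minimum mean of 5 TPM, a pseudocount of 0.1, median-ratio scaling, quantile normalization, a correction for length and GC content, an untrended prior, the replicate block and crossed numbers. It was 1094 (575 higher, 519 lower) with only the 4 libraries of D0 and W6 in the fit, which leaves fewer libraries to estimate the spread, and 2350 (1258 higher, 1092 lower) where an absolute log2 change of at least 1 was also asked. With 1 library left out it ranged from 2356 to 5047 (1312 to 2898 higher, 1044 to 2149 lower), lowest without D0 replicate 2. The cause was not tested.

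Same-numbered replicates of D0 and W6 did not deviate together (*r* = −0.129), and the numbers were not taken to pair the samples. Pairing at W1, W2 and W12 was not checked. With the replicate number as a block 3761 genes passed the threshold (2113 higher, 1648 lower), and with the D0 numbers crossed, a setting chosen after seeing the data, 4291 (2491 higher, 1800 lower).

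Of 236 changes of named genes, 100 left their side of the threshold or changed sign under at least 1 alternative, as did 51 of 76 counts of lists by more than 1.5 times. With only the 4 libraries of D0 and W6 in the fit, the numbers higher and lower were 2 and 4 for WNT, 2 and 5 for BMP and TGF-beta, 4 and 3 for matrix, 2 and 1 for adhesion and EMT, 3 and 4 for chemokine and cytokine, 1 and 4 for glycolysis and hypoxia, 5 and 2 for suprabasal and 2 and 3 for RUNX and tumour-linked genes. In this fit 5 interferon-stimulated, 8 antigen presentation, 9 AP-1 and 3 p53 or CDK genes were lower and none higher, and 2 hair follicle stem cell and 5 NRF2 genes higher and none lower. The sign turned only in genes that had not passed the threshold. *Lrig1* was at −0.0433 when scaled by median ratios and −0.0497 when quantile normalized, and *Ccnd1* at −0.0521 and −0.00829. With 1 library left out the log2 changes ranged over −0.81 to 0.87 for *Lrig1*, −0.54 to 0.59 for *Ccnd1*, −0.0409 to 4.36 for *Dcn*, −0.45 to 0.00955 for *Itgb1*, −0.67 to 0.0232 for *Kmt2d*, −0.27 to 1.51 for *Krt1*, −0.27 to 1.34 for *Krt19*, −0.95 to 0.0913 for *Lhx2*, −0.20 to 0.0644 for *Nfe2l2* and −0.0717 to 0.35 for *Sox9*. The threshold was no longer passed without D0 replicate 1 by *Cbfb*, *Cdkn1b*, *Epcam*, *Fzd1*, *Grhl3*, *Id4*, *Ly6a*, *Plagl1*, *Rps2*, *Tbx1*, *Tcf3* and *Wnt5a*, without D0 replicate 2 by *Axin2*, *Cdh1*, *Cdkn1b*, *Col4a1*, *Cxcl2*, *Fst*, *Gapdh*, *Gpi1*, *Grhl3*, *Hif1a*, *Hk2*, *Id4*, *Il24*, *Il34*, *Itgb4*, *Kdm6a*, *Kmt2c*, *Nlrc5*, *Pgam1*, *Plk1*, *Rps2*, *Runx2*, *Scd2*, *Smo*, *Tbx1*, *Tcf3*, *Tfap2c*, *Vdr*, *Vegfa*, *Wnt10b* and *Wnt5a*, without W6 replicate 1 by *Axin2*, *Cbfb*, *Col4a1*, *Dkk3*, *Epcam*, *Fzd1*, *Gapdh*, *Gpi1*, *Grhl3*, *Hif1a*, *Hk2*, *Il34*, *Kdm6a*, *Krt77*, *Ly6a*, *Pgam1*, *Plk1*, *Rps2*, *Runx2*, *S100a8*, *Scd2*, *Tcf3*, *Trp63*, *Vdr*, *Wnt10b* and *Wnt5a*, and without W6 replicate 2 by *Cdh1*, *Cdkn1b*, *Dkk3*, *Foxp1*, *Fst*, *Gpi1*, *Hk2*, *Il24*, *Itgb4*, *Krt5*, *Pgam1*, *Rps2*, *Smo*, *Tbx1* and *Tfap2c*.

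TPM do not give the depth, so that counting error is unknown, and with 2 libraries a group only differences well above the spread between libraries pass the threshold. The SOX9 induction, the DOX treatment and the age of the mice move together from D0 to W6 and cannot be told apart. W6 replicate 2 stood apart in *Dcn*, *Id4* and *Wif1*, and D0 replicate 2 went against its labelled sex.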

Other observations

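Some of the largest rises were highest at W6 among the 5 timepoints. *Igfl3*, at 51.0 and 57.3 TPM at W2, reached 624 and 338 TPM at W6 and fell to 92.2 and 71.1 TPM at W12 (log2 change −2.49, adjusted *P* = 0.00931), with both W6 libraries above all others. *Nkd2* was at 24.7 and 14.1 TPM at W2 and at 18.4 and 32.7 TPM at W12 (log2 change −1.58, adjusted *P* = 0.0307), and both W6 libraries were again the highest. *Car2*, in contrast, had 0.459 and 0.466 TPM at W2, rose by W6 (log2 change 5.30, adjusted *P* = 0.00173) and had 121 and 183 TPM at W12 (log2 change 1.37, adjusted *P* = 0.12). Its W6 libraries were far apart, so the size of the step to W12 depends on which of them is used.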
